A study of Arabidopsis thaliana with 16 samples.

Results

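The genes described here are 10 members of the Aux/IAA family of *Arabidopsis thaliana*, *IAA1*, *IAA2*, *IAA3*, *IAA4*, *IAA5*, *IAA6*, *IAA7*, *IAA14*, *IAA19* and *IAA29*. They were taken by gene identifier as 10 of the 32833 rows of the count table, not by their levels, and 19 other Aux/IAA genes of the table were kept apart for comparison. Transcripts were measured by QuantSeq, a 3′-end RNA sequencing method that yields about 1 fragment per transcript whatever its length, in 10-day-old seedlings of WT (Col-0) and of *fer-4* (hereafter *fer*), a mutant in the receptor kinase gene *FERONIA* (*FER*). All seedlings were grown on plates of 1/2MS, a dilute mineral medium, and then kept in liquid 1/2MS for 2 h. Each of 4 groups held 4 libraries. Controls of both genotypes (WT control and *fer* control) had no treatment named in the labels, which do not mention a solvent, and the other 2 groups received 12.5 µM arabidopside A, an oxylipin-containing galactolipid spelled "Aradopside" in the sample names, for 2 h. *fer* is represented by the *fer-4* allele alone. The sample labels do not say whether the libraries of a group came from separate batches of seedlings, so the p-values measure the spread between these libraries, which may in part be technical. No library was treated with auxin, so whether these 10 genes respond to auxin in these seedlings could not be checked.

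Aux/IAA proteins are short-lived repressors. They bind AUXIN RESPONSE FACTOR (ARF) transcription factors at auxin-responsive promoters, and auxin brings them to the F-box receptors TIR1 and AFB, which mark them for degradation and so release the ARFs. Many *Aux/IAA* genes are themselves switched on by ARFs, which makes them a negative feedback on the auxin response and a widely used readout of it in seedlings.

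Total counts ranged from 3928186 to 5985875 in WT control, from 3731548 to 5212147 in arabidopside-treated WT, from 2843653 to 4966370 in *fer* control and from 4994304 to 26358335 in arabidopside-treated *fer*, where replicate 2 was the deepest library. *FER* was at 95.3 to 138 CPM (counts per 1000000, scaled with edgeR's TMM factors over the 16 libraries) in WT and at 0 to 3.04 CPM in *fer*. The summed CPM of 6 leaf markers, all photosynthesis genes, was 6878 to 9436 in the WT libraries and 2736 to 5706 in the *fer* libraries. No marker was at 0. Most of the sum was *RBCS1A*, with means of 6791 CPM in WT control and 3120 CPM in *fer* control. In *fer* control 4 of the 6 were called lower (edgeR), but *LHCB2.1* was not, at 157 CPM in WT and 167 CPM in *fer*. The summed CPM of 7 root markers was 195 to 308 in WT and 201 to 357 in *fer*. These are whole seedlings, in which fewer cells of a type and less RNA per cell cannot be told apart. The part that the leaf share has in the results below was not tested.

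The 10 genes lie on 4 chromosomes (RefSeq TAIR10.1 coordinates), and several sit side by side, head to head. *IAA2* (AT3G23030, chr3:8180646-8182095, minus strand) and *IAA7* (AT3G23050, chr3:8194606-8197161, plus strand) point away from each other across 12510 bp with 0 protein-coding genes between them. *IAA14* (AT4G14550, chr4:8347822-8350263, minus strand) and *IAA1* (AT4G14560, chr4:8360996-8362033, plus strand) are arranged in the same way across 10732 bp. *IAA3* (AT1G04240, chr1:1128149-1129689, minus strand) has the family member *IAA17* as its head-to-head neighbour at 6388 bp. *IAA29* (AT4G32280, chr4:15583332-15584903, plus strand) and *IAA19* (AT3G15540, chr3:5264001-5265695, plus strand) have no such partner within the family. The 3′ part of *IAA3* overlaps AT1G04230 on the opposite strand by 640 bp and that of *IAA5* overlaps AT1G15570 by 48 bp. Since the strand setting of the counting is not given in the sources used here, reads from those stretches may not be told apart.

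The upstream sequences are shown for the 4 genes that differed between *fer* and WT controls and for *IAA19*, which held 3 matches to auxin response elements, as did *IAA5*. Each line gives the 300 bases before the annotated transcript start, 5′ to 3′ on the strand of the gene, in lower case. Capitals mark matches on either strand to TGTCTC or TGTCGG, the letters of 2 forms of the auxin response element to which ARFs bind, or to CACGTG, the G-box bound by bHLH factors such as the PIFs. No annotated gene lies within these windows, which are chr3:8182096-8182395 (minus) for *IAA2*, chr3:8194306-8194605 (plus) for *IAA7*, chr1:1129690-1129989 (minus) for *IAA3*, chr4:15583032-15583331 (plus) for *IAA29* and chr3:5263701-5264000 (plus) for *IAA19*.
IAA2: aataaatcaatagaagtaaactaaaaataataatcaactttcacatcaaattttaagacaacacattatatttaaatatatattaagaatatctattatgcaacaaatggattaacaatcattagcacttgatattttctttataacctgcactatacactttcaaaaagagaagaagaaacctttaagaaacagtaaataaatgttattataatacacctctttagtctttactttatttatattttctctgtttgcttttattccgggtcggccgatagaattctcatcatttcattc
IAA7: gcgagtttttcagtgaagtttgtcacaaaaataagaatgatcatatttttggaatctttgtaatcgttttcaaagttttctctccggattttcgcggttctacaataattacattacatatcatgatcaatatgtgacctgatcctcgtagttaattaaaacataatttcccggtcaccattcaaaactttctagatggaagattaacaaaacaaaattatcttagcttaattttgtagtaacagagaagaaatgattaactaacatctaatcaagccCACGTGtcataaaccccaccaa
IAA3: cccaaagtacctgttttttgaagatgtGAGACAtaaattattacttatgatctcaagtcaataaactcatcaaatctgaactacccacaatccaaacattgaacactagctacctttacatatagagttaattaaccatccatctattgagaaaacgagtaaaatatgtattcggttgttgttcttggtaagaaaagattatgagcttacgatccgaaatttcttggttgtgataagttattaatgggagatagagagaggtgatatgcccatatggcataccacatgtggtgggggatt
IAA29: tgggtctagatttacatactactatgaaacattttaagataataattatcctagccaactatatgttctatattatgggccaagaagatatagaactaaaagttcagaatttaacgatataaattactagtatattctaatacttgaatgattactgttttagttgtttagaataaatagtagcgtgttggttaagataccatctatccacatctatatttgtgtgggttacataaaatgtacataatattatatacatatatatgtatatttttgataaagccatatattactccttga
IAA19: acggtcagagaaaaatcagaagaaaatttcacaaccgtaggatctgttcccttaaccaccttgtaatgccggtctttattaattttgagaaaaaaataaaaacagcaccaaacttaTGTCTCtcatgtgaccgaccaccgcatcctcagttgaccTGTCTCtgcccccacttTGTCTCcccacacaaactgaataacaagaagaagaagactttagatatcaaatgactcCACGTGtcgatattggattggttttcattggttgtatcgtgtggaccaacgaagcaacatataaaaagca

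TGTCTC occurred in 5 of the 10 windows (*IAA1*, *IAA3*, *IAA5*, *IAA6* and *IAA19*) and in 13.0% of the 27443 promoters of the same length in the annotation. TGTCGG occurred in 2 of the 10 (*IAA1* and *IAA5*) against 4.91% of all promoters, and CACGTG in 2 of the 10 (*IAA7* and *IAA19*) against 7.09%. No 2 of these motifs overlapped at any match in the 10 windows. *IAA2*, *IAA4*, *IAA14* and *IAA29* held none of the 3 letter strings in this window, so *IAA2*, which was higher in *fer*, and *IAA29*, which was lower, were alike in this respect. The match in *IAA3* was at 273 to 268 bases before the start, the G-box in *IAA7* at 22 to 17 bases, and the 3 TGTCTC matches in *IAA19* between 184 and 123 bases. Among the 45 pairs of windows, *IAA6* and *IAA19* shared the longest identical run, 23 bases with 1 TGTCTC match, against a median of 9 bases over all pairs. It is printed because it places the same element at nearly the same distance in both genes, starting 181 bases before the start of *IAA6* and 186 bases before that of *IAA19*.
IAA6 and IAA19: taTGTCTCtcatgtgaccgacca

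The members spanned a wide range of levels. In WT control seedlings the order by mean CPM was *IAA7* (364 ± 32.6, SD, n = 4), *IAA2* (197 ± 27.0), *IAA4* (37.3 ± 9.03), *IAA1* (31.4 ± 10.5), *IAA3* (18.5 ± 4.14), *IAA19* (10.9 ± 3.25), *IAA14* (7.55 ± 1.26), *IAA29* (4.00 ± 1.13), *IAA5* (2.50 ± 0.739) and *IAA6* (0.348 ± 0.284). The libraries of *IAA4* and *IAA1*, of *IAA1* and *IAA3*, of *IAA19* and *IAA14*, and of *IAA29* and *IAA5* overlapped, so these neighbours in the order cannot be separated, whereas the other neighbours did not overlap. *IAA7* and *IAA2* together made up 81.4% to 92.4% of the summed CPM of the 10 genes in every library. *IAA6*, a close relative of *IAA19*, had 0 to 3 counts per library and did not pass edgeR's expression filter in any comparison. It was at or under the limit that a count of 0 allows (3 counts, 0.113 to 1.06 CPM per library) in each group, and no fold change is given for it. All counts below are therefore over the 9 members tested.

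**Figure D1:**
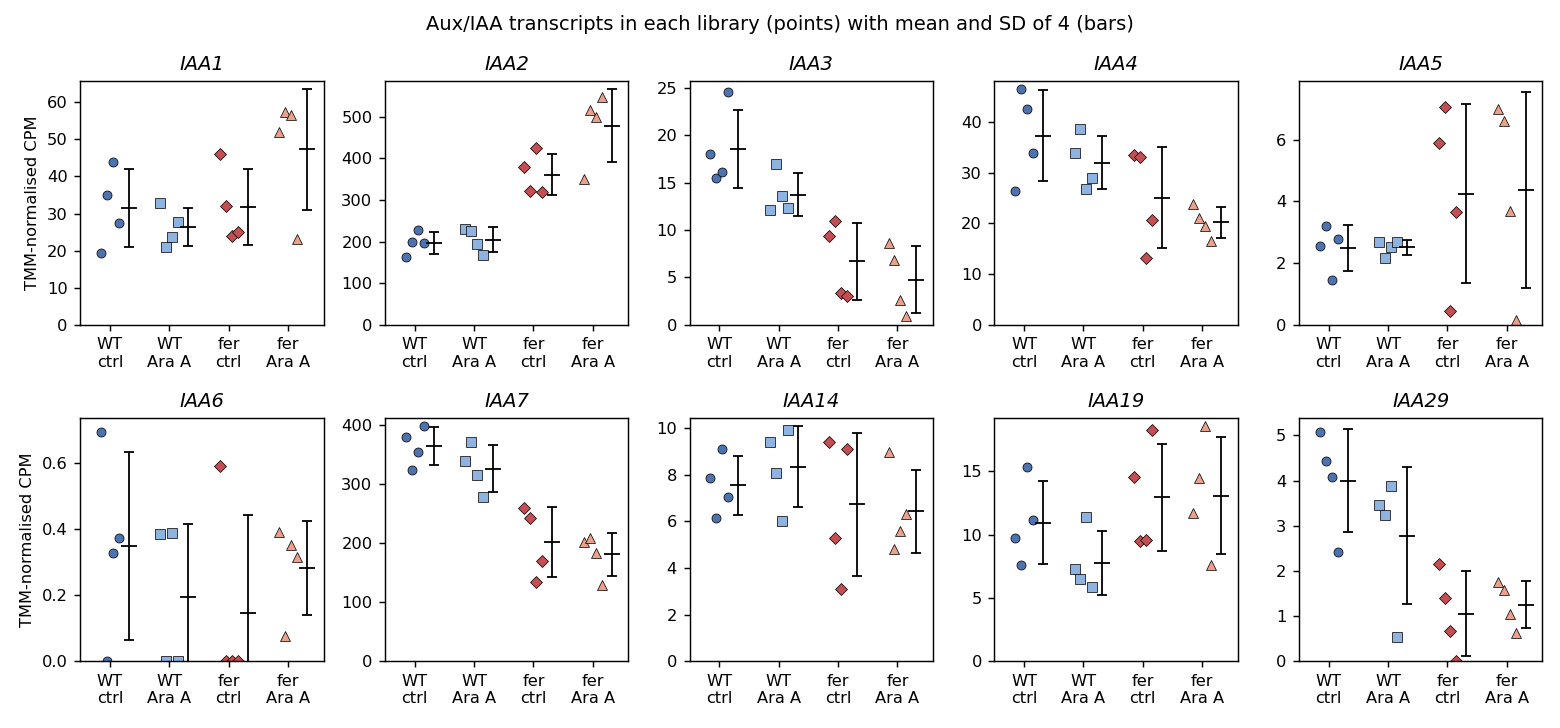
TMM-normalised CPM of each of the 10 Aux/IAA genes (vertical axes start at 0 and differ between panels) in WT and *fer* seedlings without (ctrl) and with arabidopside A (Ara A). Points are libraries, and bars show the mean and SD of 4, cut at 0 where they reach below it. The *fer* libraries of *IAA2* lie above all WT libraries (319.9 CPM or more against 230.4 or less), while those of *IAA3* and *IAA7* lie below all WT libraries.

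The comparison of untreated *fer* with untreated WT asks which of these repressor genes differ in level between the genotypes without any treatment. *IAA2* was higher in *fer*, and *IAA3*, *IAA7* and *IAA29* were lower. These are 4 of the 9 tested members past an adjusted p of 0.05 (edgeR quasi-likelihood F test, Benjamini-Hochberg over 17001 genes), 1 higher and 3 lower, where 27.2% of all genes tested passed, 15.7% higher and 11.5% lower. The median log2 fold change of the 9 was -0.18, against -0.03 over all genes tested.

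*IAA2*, a gene widely used as a readout of the auxin response, had 162, 200, 228 and 197 CPM in the WT control libraries and 378, 321, 424 and 320 CPM in the *fer* control libraries. The lowest *fer* library lay above the highest WT library. The log2 fold change was 0.87 (SE 0.145, adjusted p = 0.00157, edgeR), from a mean of 197 ± 27.0 to 361 ± 50.2 CPM (SD, n = 4). All genes tested with such complete separation upwards made up 16.2%, and those with complete separation downwards 13.6%.

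*IAA7*, also known as *AXR2*, is the head-to-head neighbour of *IAA2* and moved the other way. It had 380, 323, 353 and 398 CPM in WT control and 260, 243, 134 and 170 CPM in *fer* control, with no overlap between the groups. The log2 fold change was -0.86 (SE 0.189, adjusted p = 0.00632, edgeR), from 364 ± 32.6 to 202 ± 59.4 CPM (SD, n = 4). The 2 lowest *fer* libraries were replicates 3 and 4.

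*IAA3*, also known as *SHY2*, acts on root meristem size and on the growth of seedlings in light. It had 18.0, 15.5, 16.1 and 24.5 CPM in WT control and 9.42, 10.9, 3.34 and 3.04 CPM in *fer* control, again without overlap. The log2 fold change was -1.50 (SE 0.366, adjusted p = 0.0123, edgeR). AT1G04230, whose annotation overlaps the 3′ part of *IAA3*, had 1.06 to 7.90 CPM over the 16 libraries and a log2 fold change of -0.02 (adjusted p = 0.975, edgeR) in the same comparison.

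*IAA29*, a gene known to be induced by PIF factors in shade and warmth, was weakly expressed, and its counts set the precision. It had 5.08, 4.42, 4.07 and 2.42 CPM in WT control (13 to 25 counts) and 2.16, 1.41, 0.667 and 0 CPM in *fer* control (0 to 11 counts). All *fer* libraries were below all WT libraries. The log2 fold change was -1.81 (SE 0.547, adjusted p = 0.0287, edgeR), and the adjusted p rose to between 0.0656 and 0.0844 when WT control replicate 1, 2 or 3 or *fer* control replicate 3 was left out.

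The other 5 tested members did not pass. *IAA4* was at 37.3 ± 9.03 CPM in WT and 25.1 ± 9.99 CPM in *fer* (log2 fold change -0.59, SE 0.287, adjusted p = 0.157, edgeR). *IAA1* was at 31.4 ± 10.5 and 31.8 ± 10.2 CPM (SD, n = 4), a log2 fold change of 0.0055 (SE 0.27). *IAA14* (*SLR*), known for its part in the start of lateral roots, was at 7.55 ± 1.26 CPM in WT and 6.73 ± 3.06 CPM in *fer*. *IAA19* (*MSG2*), known for its part in hypocotyl bending and growth, was at 10.9 ± 3.25 and 13.0 ± 4.22 CPM. *IAA5* had 1.46 to 3.19 CPM in WT and 0.445 to 7.05 CPM in *fer*, so that its *fer* libraries lay on both sides of the WT range. Its log2 fold change of 0.74 (SE 0.569, adjusted p = 0.372, edgeR) became 1.16 (adjusted p = 0.0376) without *fer* control replicate 3, the library with 2 counts.

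**Figure D2:**
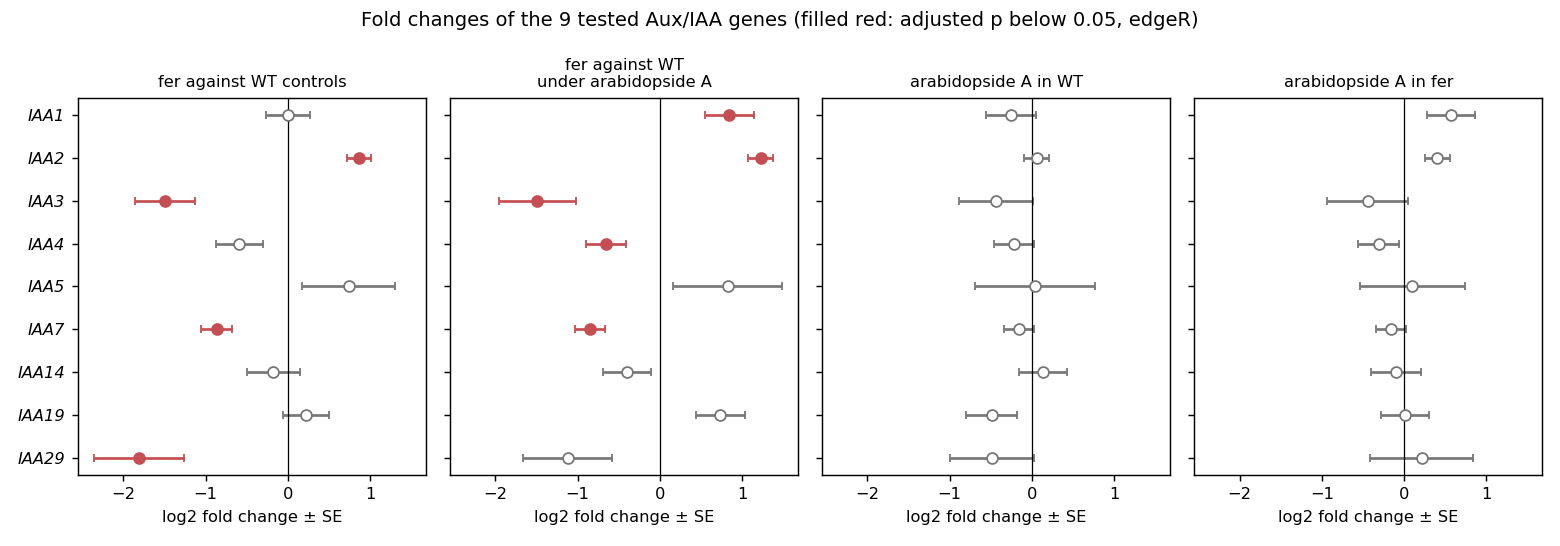
Log2 fold changes (horizontal axes) with standard errors of the 9 tested Aux/IAA genes in 4 comparisons, from edgeR, with filled red symbols for an adjusted p below 0.05. There are 4 red symbols for *fer* against WT controls, 5 under arabidopside A, and 0 for arabidopside A in WT or in *fer*. The comparisons share groups of libraries.

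Arabidopside A was given to ask how seedlings of each genotype respond to this oxylipin lipid. In WT, 0 of the 9 tested members passed the threshold with edgeR, DESeq2 or limma-voom, where 1.97% of all 18132 genes tested passed in edgeR. In edgeR 0 passed at an unadjusted p under 0.05, with the spread taken from all 16 libraries. The *fer* libraries, which differed more among themselves, enter that spread. With the WT libraries alone no member passed the adjusted threshold either. The log2 fold changes ran from -0.49 for *IAA19* (SE 0.307, adjusted p = 0.788, edgeR) to 0.13 for *IAA14* (SE 0.296). *IAA2* was at 205 ± 29.8 CPM after arabidopside A against 197 ± 27.0 CPM in the control, and *IAA7* at 326 ± 39.2 against 364 ± 32.6 CPM (SD, n = 4).

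In *fer*, too, 0 of the 9 passed with any of the 3 tools, with 1 at an unadjusted p under 0.05 in edgeR, against 0.381% of all genes tested. That member was *IAA2*, with 378, 321, 424 and 320 CPM in *fer* control and 350, 515, 498 and 548 CPM after arabidopside A. The 2 groups overlapped through replicate 1 of the treated libraries, and the log2 fold change was 0.41 (SE 0.153, unadjusted p = 0.0164, adjusted p = 0.466, edgeR). *IAA1* had means of 31.8 ± 10.2 CPM in *fer* control and 47.3 ± 16.2 CPM after treatment, a log2 fold change of 0.57 (SE 0.294, adjusted p = 0.68, edgeR) that did not pass. The treated *IAA1* libraries had 52.0, 57.3, 56.7 and 23.2 CPM, and replicate 4 stood apart from the other 3.

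The difference between the *fer* and WT responses passed for 0 of the 9 (edgeR and limma-voom, and 0 at an unadjusted p under 0.05), and for 0 of the 4 members to which DESeq2 gave an adjusted p, against 0.11% of all genes tested. It was widest for *IAA1*, 0.83 on the log2 scale (SE 0.419, unadjusted p = 0.0664, adjusted p = 1, edgeR). For *IAA3* and *IAA7* the estimated differences were -0.01 (SE 0.592) and 0.00 (SE 0.26), so the precision for *IAA3* was low.

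Under arabidopside A, *fer* and WT seedlings differed in 5 of the 9 tested members, against 31.2% of all genes tested, 17.2% of them higher and 14.0% lower. *IAA1* and *IAA2* were higher in *fer*, and *IAA3*, *IAA4* and *IAA7* were lower. The median log2 fold change of the 9 was -0.40, against -0.01 over all genes. These libraries are not those of the control comparison, but all 16 enter the fit from which the spread is taken, and *IAA2*, *IAA3* and *IAA7* passed in both comparisons. The count was 2 without replicate 2 of treated WT or replicate 3 of treated *fer*, and 3 without replicate 3 of treated WT or replicate 2 of treated *fer*.

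*IAA2* had 230, 226, 194 and 167 CPM in treated WT and 350, 515, 498 and 548 CPM in treated *fer*. The groups did not overlap, as held for 16.8% of all genes in this direction, and the log2 fold change was 1.22 (SE 0.155, adjusted p = 4.7e-05, edgeR). *IAA7* had 338, 371, 316 and 278 CPM in treated WT and 202, 209, 183 and 128 CPM in treated *fer*. Again the groups did not overlap, as held for 15.6% of all genes downwards, and the log2 fold change of -0.85 (SE 0.187, adjusted p = 0.00302, edgeR) was close to that of the controls.

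*IAA3* had 12.1, 17.0, 13.6 and 12.3 CPM in treated WT and 8.57, 6.80, 2.62 and 0.948 CPM in treated *fer*, without overlap. Its log2 fold change was -1.49 (SE 0.469, adjusted p = 0.0251, edgeR), and the adjusted p became 0.0634, 0.0503 or 0.0687 without WT replicate 2, WT replicate 3 or *fer* replicate 3 of the treated libraries. *IAA4* had 33.9, 38.6, 26.7 and 28.9 CPM in treated WT and 23.8, 21.2, 19.4 and 16.6 CPM in treated *fer*. Its groups did not overlap either, but the log2 fold change of -0.66 (SE 0.245, adjusted p = 0.0491, edgeR) lay at the threshold. It failed with DESeq2 size factors (adjusted p = 0.0502), with no filter (0.0538) and with a stricter filter (0.0507), and in 11 of the 16 fits that left out 1 library (adjusted p 0.0525 to 0.133), those without any treated WT library, treated *fer* replicate 2, 3 or 4, WT control replicate 2, 3 or 4, or *fer* control replicate 4.

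*IAA1*, known from the dominant *axr5* mutant, had 32.9, 21.0, 23.6 and 27.8 CPM in treated WT, and 3 of the 4 treated *fer* libraries were above this range and 1 within it. Its log2 fold change was 0.84 (SE 0.295, adjusted p = 0.0393, edgeR). With the replicate number as a block it was 0.80 (edgeR, adjusted p = 0.0509), which ended the call. It was also lost with limma-voom (0.78, adjusted p = 0.0711), upper-quartile scaling (0.77, adjusted p = 0.0712) and no filter (0.86, adjusted p = 0.0512), and the fits without replicate 2, 3 or 4 of treated WT or 1, 2 or 3 of treated *fer* lost it as well (0.73 to 0.87, adjusted p 0.0623 to 0.0987). *IAA29* had 3.46, 3.24, 3.87 and 0.535 CPM in treated WT and 0.632 to 1.75 CPM in treated *fer*. Here 1 WT library fell below all *fer* libraries, and the log2 fold change of -1.12 (SE 0.54, adjusted p = 0.124, edgeR) passed only without that library (-1.43, adjusted p = 0.0435). *IAA19* had a log2 fold change of 0.74 (adjusted p = 0.0698, edgeR), which passed without replicate 3 of treated WT (0.99, adjusted p = 0.035) or replicate 4 of treated *fer* (0.92, adjusted p = 0.0267). *IAA5* (0.82, adjusted p = 0.371) and *IAA14* (-0.40, adjusted p = 0.316) did not pass with edgeR.

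The opposite direction of *IAA2* and *IAA7* was plain within each library, a description chosen after their values were seen. The ratio of *IAA2* to *IAA7* CPM was 0.427 to 0.681 in the 8 WT libraries and 1.32 to 4.27 in the 8 *fer* libraries. *IAA7* was the most abundant of the 10 transcripts in all WT libraries, and *IAA2* in all *fer* libraries. Summed over the 10 genes, CPM was 533 to 714 in WT and 570 to 836 in *fer*, ranges that overlap.

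**Figure D3:**
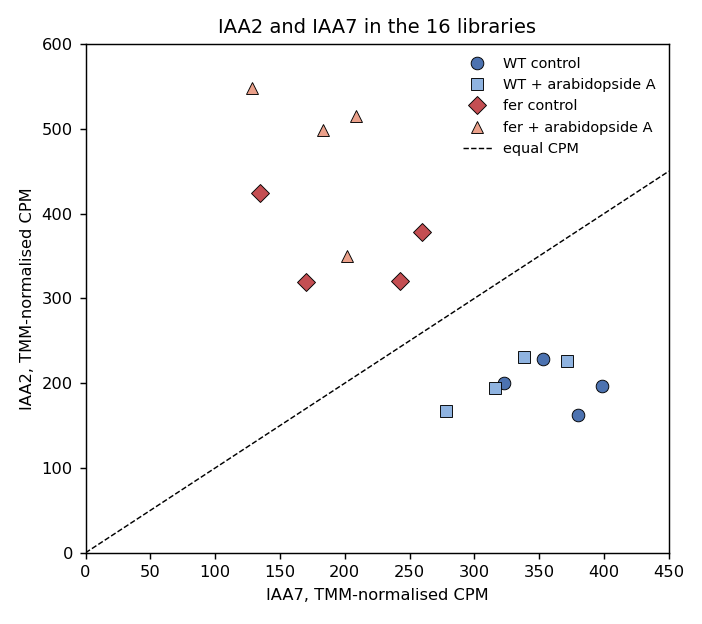
*IAA2* against *IAA7* in TMM-normalised CPM, with 1 point for each of the 16 libraries. All 8 *fer* libraries lie above the dashed line of equal CPM (ratio 1.32 to 4.27) and all 8 WT libraries below it (0.427 to 0.681).

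The *fer* libraries differed among themselves along the replicate number. In *fer*, replicates 1 and 2 were above replicates 3 and 4 in both the control and the treated libraries for 5 of the 9 tested members, *IAA3*, *IAA4*, *IAA5*, *IAA7* and *IAA29*, and below them for 0. Among all 18132 genes tested, 15.5% were ordered in the first way and 16.8% in the second. In WT the same order was found for 0 of the 9 members, and for 2.48% and 2.42% of all genes. *IAA3* in *fer* control averaged 10.2 CPM in replicates 1 and 2 and 3.19 CPM in replicates 3 and 4, and after arabidopside A it averaged 7.69 and 1.79 CPM. *IAA2* was not ordered in this way, with 350 and 372 CPM in *fer* control. The summed CPM of the leaf markers, mostly that of *RBCS1A*, was ordered like the 5 members after arabidopside A. It was 5018 and 4544 in *fer* replicates 1 and 2 against 3593 and 3061 in replicates 3 and 4. In *fer* control it was 5706 and 3880 against 2736 and 3878, so replicates 2 and 4 were nearly equal. The part of the leaf markers in the members' order was not tested.

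The genotype difference was also computed in each set of libraries, 2 per group, a choice made after the data were seen. The sets are those of the order just described. The larger negative fold changes of *IAA3*, *IAA4*, *IAA7* and *IAA29* in controls 3 and 4 thus partly follow from that order and are no separate support. Same-numbered *fer* and WT controls did not deviate together, so which WT libraries join a set is arbitrary. With only the control libraries numbered 1 and 2, 2 members passed (edgeR), against 14.6% of all genes tested, *IAA2* at 0.94 and *IAA7* at -0.50, while *IAA3* was at -0.75 (adjusted p = 0.0856) and *IAA29* at -1.35 (adjusted p = 0.107). With only those numbered 3 and 4, 5 members passed, against 33.4% of all genes, *IAA2*, *IAA3* at -2.64, *IAA4* at -1.19, *IAA7* at -1.29 and *IAA29* at -3.01. Under arabidopside A the members' count went the other way. With the libraries numbered 1 and 2, 7 members passed against 16.7% of all genes, the 5 named above for this comparison and *IAA5* (1.46, adjusted p = 0.0122, edgeR) and *IAA19* (0.94, adjusted p = 0.0328). With those numbered 3 and 4, 3 passed against 30.8% of all genes, *IAA2* at 1.53, *IAA3* at -2.87 and *IAA7* at -0.94. The call of *IAA5* in libraries 1 and 2 partly follows from the same order of the *fer* libraries. So do the larger negative fold changes of *IAA3* and *IAA7* in libraries 3 and 4, and none of these is separate support. The labels do not say what the replicate number marks.

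**Figure D4:**
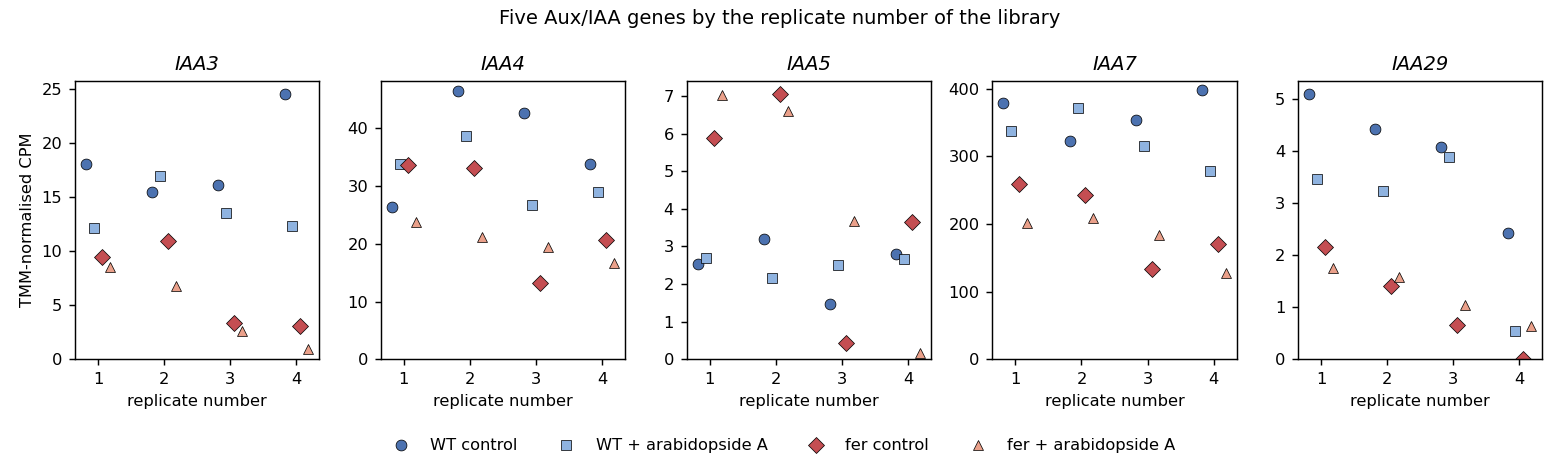
TMM-normalised CPM (vertical axes start at 0) of the 5 Aux/IAA genes whose *fer* libraries were ordered by replicate number (horizontal axes), in the 4 groups. Red and orange symbols (*fer*) are higher at replicates 1 and 2 than at 3 and 4 in every panel, with *IAA3* falling from 10.2 to 3.19 CPM in *fer* control.

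Among the 19 other Aux/IAA genes, 12 were tested in the control comparison and 2 passed, against 27.2% of all genes tested. *IAA10* was higher in *fer*, at 2.98 ± 1.30 CPM in WT and 9.97 ± 4.88 CPM in *fer* (log2 fold change 1.71, SE 0.417, adjusted p = 0.0114, edgeR), with an annotated gene on the opposite strand over 619 bp of it. *IAA8* was lower, at 87.0 ± 3.55 and 67.3 ± 9.50 CPM (-0.38, adjusted p = 0.0453, edgeR). *IAA17*, the neighbour of *IAA3*, did not pass (-0.38, adjusted p = 0.373, edgeR). Under arabidopside A, 5 of 14 passed, 3 higher and 2 lower in *fer*, against 31.2% of all genes tested. *IAA10* (2.27), *IAA8* (-0.48), *IAA16* (0.56) and *IAA26* (0.52) were among them. *IAA16* belongs to the same subgroup of the family as *IAA7* and *IAA14*.

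The genes on either side of the Aux/IAA proteins in the pathway were counted in the same way. In the controls, 27.2% of all genes tested passed, 15.7% higher and 11.5% lower in *fer*. Of the 6 TIR1 and AFB receptor genes and the 5 activating ARF genes, 0 passed between *fer* and WT controls with edgeR or DESeq2, with 1 and 2 at an unadjusted p under 0.05 in edgeR, and limma-voom passed *ARF8* alone of these. The *GH3* genes encode enzymes that join auxin to amino acids, and 4 of the 6 tested were higher in *fer*. *GH3.3* rose from 50.4 ± 13.6 to 138 ± 10.3 CPM (log2 fold change 1.45, adjusted p = 0.000227, edgeR) and *GH3.2* from 27.0 ± 1.74 to 58.7 ± 18.0 CPM (1.11, adjusted p = 0.0025), beside *GH3.5* (0.83) and *GH3.6* (0.76). Of 6 tested *SAUR* genes, which are rapid auxin-response genes, 1 passed, *SAUR9* (1.32, adjusted p = 0.0207, edgeR).

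Transport and synthesis genes that passed in the controls were lower in *fer*, as were 11.5% of all genes tested. Of the 9 transporter genes 4 passed, the efflux carriers *PIN3* (-0.86, adjusted p = 0.00157) and *PIN4* (-0.83) and the influx carriers *AUX1* (-1.003, adjusted p = 0.00161) and *LAX1* (-0.89), all with edgeR. DESeq2 and limma-voom each called 5 lower, these and *PIN7*. Of 6 tested synthesis genes 1 passed, *TAA1*, which encodes the aminotransferase of the main auxin pathway (-0.91, adjusted p = 0.0358, edgeR). Of 5 tested PIF and shade genes 3 passed, *PIF3* (-0.74), *PIF4* (-0.79) and *PIF5* (-0.52). A link between these genes and the lower *IAA29* was not tested. Of the leaf markers 4 of 6 were lower as well, and of the root markers 1 of 7.

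Under arabidopside A, *GH3* genes were higher in *fer* in 5 of 6 cases, led by *GH3.3* (1.64, adjusted p = 4.4e-05, edgeR) and *GH3.2* (1.71, adjusted p = 0.000127). Of all genes tested, 17.2% passed as higher in *fer* and 14.0% as lower. Of the receptors, *AFB5* was lower (-0.55), and of the transporters 4 were lower, *LAX1* (-1.26) foremost, and *PIN2* was higher (0.72). DESeq2 and limma-voom called *PIN7* lower as well. *PIF3*, *PIF4* and *PIF5* were lower again (-0.54, -0.84 and -0.49). The response to arabidopside A itself passed in edgeR for 1 gene of all these lists, *GH3.2* in WT, which DESeq2 called and limma-voom did not. Of all genes tested, 1.97% passed in WT and 0.381% in *fer*. *GH3.2* in WT fell by 1.02 on the log2 scale (SE 0.245, adjusted p = 0.0358, edgeR) from 27.0 ± 1.74 to 13.2 ± 2.50 CPM. DESeq2 also called the root marker *TIP2;3* lower in both genotypes. In *fer*, *GH3.2* had 58.7 ± 18.0 and 43.4 ± 15.1 CPM.

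**Figure D5:**
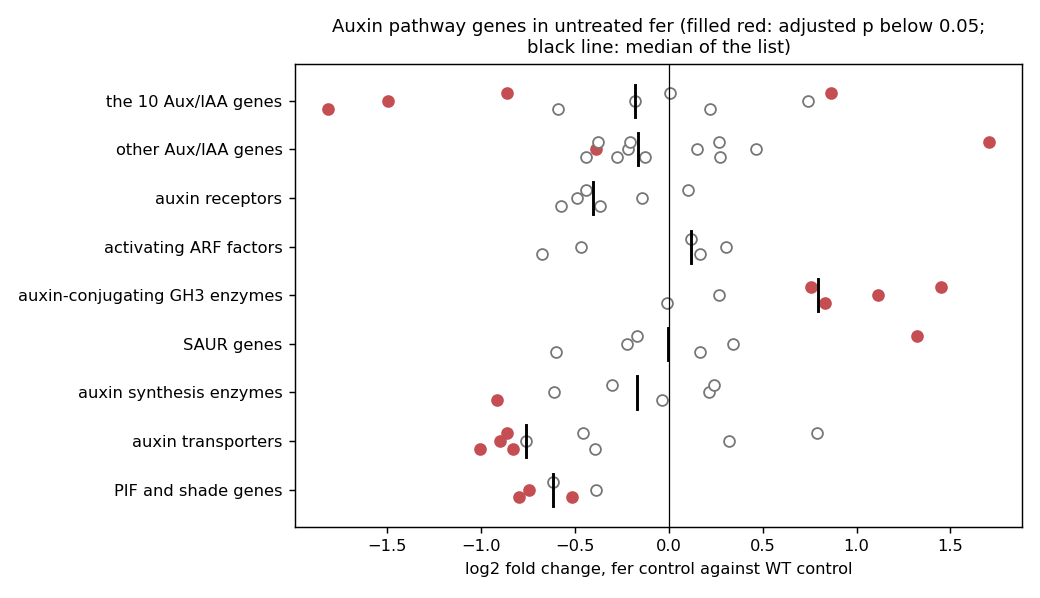
Log2 fold change of *fer* control against WT control (horizontal axis, edgeR) for the tested genes of each auxin-related list, with filled red circles for an adjusted p below 0.05 and a black line at the median of the list. The 10 Aux/IAA genes (9 tested) spread from -1.81 to 0.87, the 4 red GH3 genes lie at 0.76 or more, and the 4 red transporter genes lie at -0.83 or less.

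The genes outside the family whose pattern was most like the members' median over the 16 libraries were found by the mean absolute difference of centred log2 CPM, as a description. That median is over 9 members that moved in opposite directions, so it need not be the pattern of any member. The closest genes were *EMB3012* (AT5G40480, 0.129), *HTB1* (AT1G07790, 0.134) and AT5G64816 (0.134), against a median of 0.422 over all genes tested. The members' own distances to it were not computed. The members' median profile was lowest in *fer* control replicate 3 (-1.04) and highest in WT control replicate 3 (0.48).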

How the data were processed

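The 16 libraries were sequenced as 50-bp QuantSeq reads. According to the methods and the submitters' processing notes, STAR placed the reads on TAIR10, htseq-count in intersection-nonempty mode assigned them to genes, and the authors deposited the resulting whole-number counts with no normalization. Tool versions, the strand option and the test used for these transcripts are not given in the sources used here, and reads shared by near-identical family members were not examined. Groups and replicate numbers came from the sample titles.

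From the counts, edgeR 4.0.16 (R 4.3.3) was run with TMM factors, its expression filter and the robust quasi-likelihood F test, with Benjamini-Hochberg adjustment over all genes tested (17001 in the 8 control libraries, 18132 over 16) and a threshold of 0.05. The standard error is the log2 fold change divided by the square root of F. The control comparison used its own 8 libraries, and the other comparisons came from 1 fit of all 16 with a coefficient per group, so they share libraries. Alternatives were other normalizations and filters, DESeq2 1.42.0, limma-voom (limma 3.58.1), a replicate block, other sets of libraries, thinning of the deepest library and leaving out each library. The tests were also run on simulated counts drawn independently for each library. These lack the shared deviations of the *fer* libraries described below, so the tests were not checked under them.

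Libraries of the same number in *fer* control and treated *fer* deviated together (correlation of deviations from the group means 0.174 to 0.592). Other numbers gave -0.603 to 0.664, with 0.174 to 0.664 for the 8 pairs within replicates 1 and 2 or within 3 and 4 and -0.603 to -0.186 for the 8 across them, so the deviations followed these sets more than the number itself. Those of WT control and treated WT did not (-0.0391 to 0.00837), nor did those of *fer* and WT controls (-0.025 to -0.00892). The lowest chi-square per gene between 2 libraries of a group was 2.61, above sampling noise, and no library was treated as a repeat of another. The limit for a count of 0 covers counting error only, while the standard errors and SDs hold the spread between libraries.

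The named genes are the 10 members, *FER*, up to 4 genes per list and comparison with the smallest adjusted p among those that passed, and the 3 closest profiles. *IAA17*, AT1G04230, *PIN2*, *PIN7*, *ARF8*, *TIP2;3*, *RBCS1A* and *LHCB2.1* are named besides, chosen after their values were seen. The members and gene lists were chosen with earlier results of these data known. Coordinates and upstream sequences are from RefSeq TAIR10.1, which matched 32548 of the 32833 identifiers, including all 98 listed genes.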

Additional observations from a re-analysis of the deposited data

Results flagged for a closer look

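In the arabidopside-treated *fer* group, *IAA1* had 23.2 CPM in replicate 4, far below the other 3 libraries (52.0 to 57.3 CPM). In *fer* control, *IAA6* had 0.588 CPM (3 counts) in replicate 1 and 0 in the other 3 libraries, a difference that lies at the limit a count of 0 allows. Replicate 2 of treated *fer* had 26358335 total counts, against at most 6860427 in the others of its group. These are 3 of 44 groups of 4 libraries examined, where chance alone gives about 1 in 20.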

How the results depend on the processing

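Low counts limit the weak members: *IAA29* and *IAA5* had at most 25 and 36 counts per library outside the deepest one, and *IAA6* could not be tested. *IAA3* had 15 and 10 counts in *fer* control replicates 3 and 4 and 15 and 6 in those of treated *fer*. Its other libraries had 31 counts or more. *IAA2* and *IAA7* kept their direction and their call in both genotype comparisons under all alternatives run. For *fer* against WT controls, 3 to 4 members passed when 1 library was left out, 2 with only the libraries numbered 1 and 2 (14.6% of all genes) and 5 with only those numbered 3 and 4 (33.4%). Upper-quartile scaling moved the median of all genes in that comparison to -0.13. Under arabidopside A, 2 to 5 passed when 1 library was left out, and 3 with no filter or with a stricter filter (10 counts or more per library). The stricter filter left *IAA3*, with 6 counts in treated *fer* replicate 4, untested. With only the libraries numbered 3 and 4, 3 passed (30.8% of all genes), and 7 with only those numbered 1 and 2 (16.7%). No member was called for arabidopside A in WT, in *fer* or for the difference of responses in any alternative. The causes of these changes were not tested, and the sets by replicate number were chosen after the data were seen. With the replicate number as a block, *IAA1* under arabidopside A lost its call (0.80) and no other call changed.

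The direction turned for log2 fold changes that had not passed the test, including those of *IAA5* between genotypes (0.74 and 0.82). In *fer* against WT controls this held for *IAA1* with upper-quartile scaling (-0.086) and the libraries numbered 3 and 4 (-0.54), *IAA5* with those libraries (-0.15) and *IAA14* with those numbered 1 and 2 (0.11), and with 1 library left out *IAA1* ran from -0.24 to 0.21 and *IAA14* from -0.41 to 0.093. Under arabidopside A, *IAA5* was at -0.47 with the libraries numbered 3 and 4. For arabidopside A in WT, *IAA5* was at -0.011 with upper-quartile scaling, and leaving out 1 library gave -0.17 to 0.17 for *IAA5* and -0.032 to 0.14 for *IAA2*. For arabidopside A in *fer*, *IAA19* was at -0.0048 with the replicate block, and leaving out 1 library gave -0.30 to 0.49 for *IAA5*, -0.20 to 0.21 for *IAA19*, -0.36 to 0.12 for *IAA14* and -0.14 to 0.93 for *IAA29*.

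For the difference of responses, *IAA3* was at 0.0013 with DESeq2 size factors, 0.032 with upper-quartile scaling, 0.018 with no filter and 0.023 with limma-voom. *IAA7* was at 0.0092 with DESeq2 size factors, 0.0069 with DESeq2, 0.025 with upper-quartile scaling, 0.023 with no filter, 0.029 under the stricter filter, 0.034 with limma-voom, 0.033 with the replicate block and 0.024 with the block within genotype. *IAA5* was at -0.062 with that block and -0.0075 with the deepest library thinned, and *IAA4* at 0.0032 with limma-voom. Leaving out 1 library gave -0.31 to 0.31 for *IAA3*, -0.33 to 0.45 for *IAA5*, -0.15 to 0.14 for *IAA7* and -0.30 to 0.10 for *IAA4*.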
